A study of Mus musculus with 18 samples.

Results

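The genes followed here mark the local circuit neurons (interneurons) of the spinal cord. They were chosen by name, 5 for inhibitory neurons (Gad1, Gad2, Slc32a1, Slc6a5 and Pax2) and 4 for excitatory neurons (Slc17a6, Slc17a8, Lmx1b and Tlx3), and all 9 were found among the 38924 genes of every table. Ribosome-bound mRNA was sequenced from the spinal cords of 18 mice aged 8 weeks. In the RiboTag method used, cells with Cre recombinase make Rpl22, a protein of the large ribosomal subunit, with a haemagglutinin tag, and anti-tag antibody pulls their ribosomes down together with the mRNA. All mice carried 1 copy of the Rpl22 tag (Rpl+/-) on the background B6;CASTxB6.129. The Cre WT group (4 mice) also carried the Chat-Cre allele (Chat+/-) with a normal Gars gene, and the Cre P278KY group (3 mice) carried Chat-Cre and the P278KY allele of Gars in 1 copy. The NoCre WT (5 mice) and NoCre P278KY (6 mice) groups lacked Cre, so that no ribosome is tagged and the RNA recovered is the unspecific background of the pull-down. Chat-Cre is active in cholinergic neurons, which in the cord include the motor neurons, and Gars encodes glycyl-tRNA synthetase, in which P278KY is a dominant change that gives mice a peripheral neuropathy.

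Inhibitory neurons of the cord release GABA, glycine or both. Gad1 and Gad2 encode the enzymes that make GABA from glutamate, Slc32a1 (VGAT) loads GABA and glycine into synaptic vesicles, Slc6a5 (GlyT2) takes glycine back into the terminal, and Pax2 is a transcription factor of developing dorsal inhibitory neurons. Excitatory interneurons load glutamate with Slc17a6 (VGLUT2) or, in a smaller class, Slc17a8 (VGLUT3), and the homeodomain factors Lmx1b and Tlx3 specify the excitatory neurons of the dorsal horn. None of these is a defining gene of cholinergic motor neurons.

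Library totals ran from 14659488 to 24028649 reads in the Cre groups and from 8177758 to 14450144 in the NoCre groups. Levels are given as counts per 1000000 (CPM) after TMM scaling over the 18 libraries. The label check held for Cre: Chat was at 122 ± 44.0 CPM (SD, n = 4) in Cre WT and 105 ± 12.6 (n = 3) in Cre P278KY, against 7.90 ± 2.92 (n = 5) in NoCre WT and 2.88 ± 0.616 (n = 6) in NoCre P278KY. Gars stood at 274 ± 23.1 CPM with Cre and P278KY, 139 ± 29.3 in Cre WT; without Cre its range was 23.4 to 44.8 CPM among WT and 26.3 to 40.3 among P278KY mice. Rpl22 lay between 18.7 and 34.7 CPM in the group means, and neither gene's count separates tagged or mutant copies from normal ones. The index sequences in the library descriptions occur once among the first 10 libraries (index set 1) and start again among the other 8 (index set 2). All 3 Cre P278KY libraries are in set 1, and Cre WT has replicates 1 and 2 in set 1 and 3 and 4 in set 2. Sex is not in the labels, and it moved with the set: Xist exceeded Ddx3y in all 8 libraries of set 2 and in 2 of the 10 of set 1, both of them Cre P278KY. In such bulk RNA, fewer cells of a type and less RNA per cell cannot be told apart.

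The sequences just before the start sites of 4 members are shown because these genes stand for the classes compared: the vesicle transporters and 1 transcription factor of each class. They come from RefSeq, build GRCm38.p6, in which all 9 members were matched, and each holds the 250 bases before the RefSeq start nearest to the gene's 5′ end in GENCODE M21. Capitals mark matches on either strand to the E-box CANNTG or the GC box GGGCGG; the TATA box TATAAA and the homeodomain site TAATTA were also searched and match none of these 4 windows. The windows are, for Slc32a1 chr2:158610508-158610757 (plus strand), for Pax2 chr19:44755502-44755751 (plus strand), for Slc17a6 chr7:51621580-51621829 (plus strand) and for Lmx1b chr2:33641099-33641348 (minus strand).
Slc32a1: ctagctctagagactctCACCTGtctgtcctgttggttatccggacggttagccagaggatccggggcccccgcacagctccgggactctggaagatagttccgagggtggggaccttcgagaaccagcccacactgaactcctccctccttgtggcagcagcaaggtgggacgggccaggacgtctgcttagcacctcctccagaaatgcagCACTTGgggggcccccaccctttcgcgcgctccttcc
Pax2: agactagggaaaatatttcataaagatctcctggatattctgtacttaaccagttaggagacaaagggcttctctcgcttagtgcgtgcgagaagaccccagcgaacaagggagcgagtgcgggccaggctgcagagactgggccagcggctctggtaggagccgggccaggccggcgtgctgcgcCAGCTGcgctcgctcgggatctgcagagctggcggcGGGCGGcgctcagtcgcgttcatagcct
Slc17a6: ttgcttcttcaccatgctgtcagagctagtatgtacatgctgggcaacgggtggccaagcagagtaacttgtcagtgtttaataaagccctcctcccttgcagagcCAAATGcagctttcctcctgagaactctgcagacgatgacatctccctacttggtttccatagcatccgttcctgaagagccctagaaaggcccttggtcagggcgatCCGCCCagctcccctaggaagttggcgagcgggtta
Lmx1b: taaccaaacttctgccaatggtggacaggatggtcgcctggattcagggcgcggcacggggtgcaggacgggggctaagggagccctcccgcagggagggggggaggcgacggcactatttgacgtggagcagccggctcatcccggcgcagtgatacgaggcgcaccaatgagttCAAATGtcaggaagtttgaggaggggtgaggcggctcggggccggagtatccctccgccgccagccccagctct
An E-box was found in 8 of the 9 members' windows, beside 66.2% of the 32851 windows of this length in the table. A GC box was in 4 of 9 (32.7% of all windows), a TATA box in 1 of 9, Gad1 (12.4%), and TAATTA in 0 of 9 (4.84%). A match describes these letters only. On the opposite strand, exons of the noncoding genes Gm14204 and C130021I20Rik lie in the windows of Slc32a1 and Lmx1b. Exons of Slc32a1 itself overlap those of the antisense gene Gm14205, which was listed at 0 in all 18 libraries, and whether the counting used strand is not given in the sources used here.

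The first comparison asked how the markers stood in RNA brought down from Cre mice against the background of NoCre mice. Interneuron markers were lower in the Cre libraries in both genotypes, while cholinergic and pan-neuronal genes were higher. In WT mice, 7 of the 8 markers that passed the filter on low counts were called lower (edgeR's quasi-likelihood test, Benjamini-Hochberg adjusted p below 0.05) and 0 higher, where 31.2% of the 17133 genes tested were called lower and 28.5% higher. In P278KY mice, 5 of 8 were called lower and 0 higher, beside 31.2% lower and 28.2% higher of all genes. The median log2 fold change of the 8 markers was -0.89 in WT and -1.11 in P278KY mice, against -0.12 and -0.13 over all genes tested. Tlx3 did not pass the filter. Groups did not overlap for 2 of these 8 markers in WT mice, Gad1 and Lmx1b, and for 4 of 8 in P278KY mice, Gad2, Slc6a5, Slc17a6 and Lmx1b. Without Cre WT replicate 1, 4 of 8 markers were called in WT mice. Without Cre P278KY replicate 1 only Lmx1b was called in P278KY mice, and without replicate 2 only Lmx1b and Gad2. Index set 1 holds all Cre P278KY libraries. Within it, 3 of 5 inhibitory and 3 of 3 tested excitatory markers were called lower in P278KY mice, beside 4892 of 17141 genes. Of all genes tested, 20.7% lay wholly lower in WT and 27.9% in P278KY mice. The make-up of the RNA moved with Cre: mitochondrial ribosomal RNA took 1.36% to 4.88% of the reads in Cre and 24.2% to 53.8% in NoCre libraries, and protein-coding genes took 63.6% to 87.0% and 23.0% to 60.4%, with NoCre WT replicates 4 and 5 highest in the first and lowest in the second. With ribosomal RNA genes left out of the library size 7 markers were called lower in each genotype, and with scaling by library size only 3 in WT and 2 in P278KY mice.

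**Figure D1:**
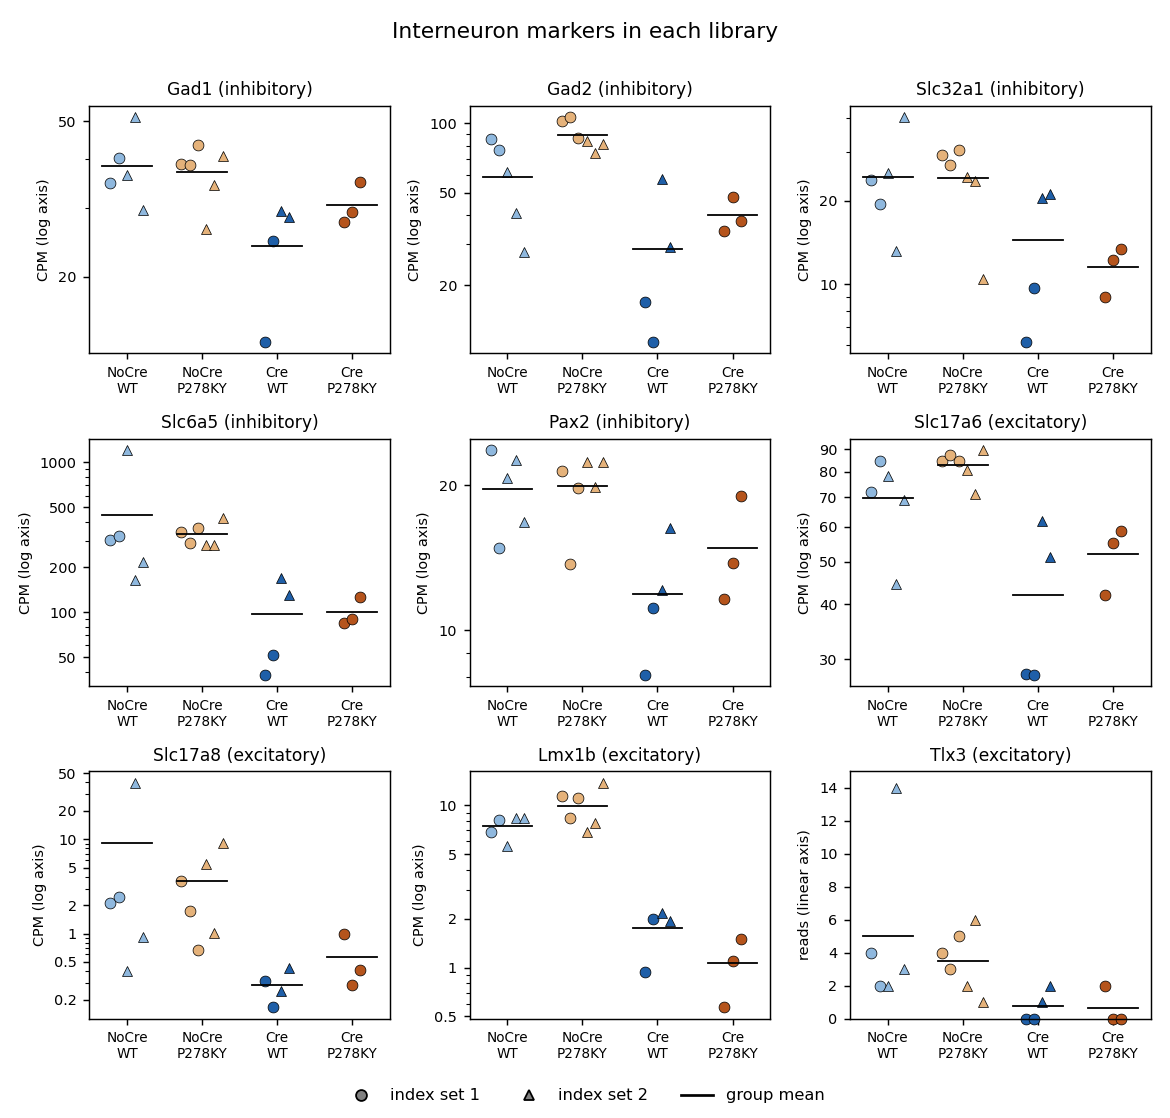
Level of each of the 9 interneuron markers in the 18 libraries, in CPM on a log axis (Tlx3 in reads on a linear axis), by group; circles are index set 1, triangles index set 2 and black lines group means. Lmx1b shows the clearest gap, with all Cre libraries at or below 2.16 CPM and all NoCre libraries at or above 5.57 CPM. Cre WT replicates 1 and 2 lie below replicates 3 and 4 for Gad1, Gad2, Slc32a1, Slc6a5, Pax2 and Slc17a6.

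Gad1, the first of the GABA-synthesising enzymes, was at 34.8, 40.2, 36.4, 51.2 and 29.7 CPM in NoCre WT and at 13.6, 24.7, 29.5 and 28.4 in Cre WT. The groups did not overlap, but the highest Cre WT and the lowest NoCre WT libraries lay next to each other. Gad1 fell by 0.67 on the log2 scale in Cre WT (SE 0.23, adjusted p = 0.0137), and the call was lost without Cre WT replicate 1 (-0.48, adjusted p = 0.0644). Gad1 in P278KY mice ranged from 26.5 to 43.4 CPM (median 38.7) without Cre and was 27.6, 29.3 and 34.9 with Cre. These ranges overlapped and the difference of -0.28 was not called (adjusted p = 0.316, 95% interval -0.77 to 0.21).

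Gad2 was at 85.8, 76.7, 61.6, 41.0 and 27.9 CPM in NoCre WT and at 16.9, 11.4, 57.5 and 29.1 in Cre WT, with overlap. It fell by 1.02 on the log2 scale (SE 0.36, adjusted p = 0.0193); the difference was -2.49 within index set 1 (adjusted p = 3.9e-07) and -0.02 within set 2 (adjusted p = 0.971). The call was also lost without any 1 of Cre WT replicates 1 and 2 or NoCre WT replicates 1 and 2 (adjusted p from 0.0509 to 0.0675). Without Cre WT replicate 3 the fall was -1.59. In P278KY mice Gad2 ranged from 74.0 to 106 CPM (median 84.7) without Cre and was 34.1, 48.2 and 37.9 with Cre. All 3 Cre libraries lay below all 6 NoCre libraries, a fall of -1.15 (SE 0.39, adjusted p = 0.0164).

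Slc32a1, the vesicular GABA and glycine transporter, was at 23.8, 19.4, 25.2, 13.1 and 40.2 CPM in NoCre WT and at 6.16, 9.65, 20.6 and 21.2 in Cre WT. The groups overlapped through Cre WT replicates 3 and 4, and the difference of -0.75 was not called over all libraries (adjusted p = 0.0710, 95% interval -1.49 to -0.02). Within index set 1 it was -1.44 (adjusted p = 3.4e-04) and within set 2 -0.34 (adjusted p = 0.602). It was called without Cre WT replicate 3 (-0.97, adjusted p = 0.0450), Cre WT replicate 4 (-1.04, adjusted p = 0.0276) or NoCre WT replicate 4 (-0.88, adjusted p = 0.0448). Slc32a1 in P278KY mice ranged from 10.5 to 30.5 CPM (median 25.6) without Cre and was 8.95, 12.2 and 13.4 with Cre. It fell by 1.08 on the log2 scale (adjusted p = 0.0207), with overlap through the NoCre replicate at 10.5 CPM.

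Slc6a5, the glycine transporter of glycinergic terminals, showed the deepest fall among the inhibitory ones. It was at 303, 323, 1208, 164 and 216 CPM in NoCre WT and at 38.3, 51.6, 169 and 130 in Cre WT. Only Cre WT replicate 3 exceeded the lowest NoCre library. The fall was -2.18 (SE 0.55, adjusted p = 0.0031), and -1.37 (adjusted p = 0.00263) without NoCre WT replicate 3, the library at 1208 CPM. Slc6a5 in P278KY mice ranged from 279 to 426 CPM (median 317) without Cre and was 84.3, 90.2 and 127 with Cre, with no overlap. There it fell by 1.72 on the log2 scale (SE 0.59, adjusted p = 0.0209).

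Pax2, the transcription factor among the inhibitory markers, was at 23.7, 14.8, 20.7, 22.5 and 16.7 CPM in NoCre WT and at 8.09, 11.1, 12.1 and 16.3 in Cre WT. The ranges met at Cre WT replicate 4, and the fall of -0.72 was called (adjusted p = 0.0134), though not without Cre WT replicate 1 (-0.58, adjusted p = 0.0584). Pax2 in P278KY mice ranged from 13.7 to 22.4 CPM (median 20.6) without Cre and was 11.6, 13.8 and 19.0 with Cre, a difference of -0.43 that was not called (adjusted p = 0.147, 95% interval -0.95 to 0.10).

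Among the excitatory markers, Slc17a6, the main vesicular glutamate transporter of the cord, was at 72.1, 84.7, 78.2, 44.4 and 69.0 CPM in NoCre WT and at 27.8, 27.6, 61.7 and 51.1 in Cre WT. Cre WT replicates 3 and 4 overlapped with the lowest NoCre library only. It fell by 0.73 on the log2 scale (SE 0.23, adjusted p = 0.0100), with -1.47 in index set 1 (adjusted p = 1.2e-05) and -0.19 in set 2 (adjusted p = 0.649). In P278KY mice it ranged from 71.2 to 89.8 CPM (median 84.7) without Cre and was 42.0, 55.1 and 58.8 with Cre. These groups did not overlap, and the fall was -0.68 (adjusted p = 0.0223).

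Slc17a8 was rare. NoCre WT libraries had 2.10, 2.43, 0.398, 39.8 and 0.913 CPM and Cre WT libraries 0.311, 0.165, 0.244 and 0.430, from 258 and 25 reads in all. The fall of -4.88 (adjusted p = 0.0039) became -2.25 (adjusted p = 0.0158) without NoCre WT replicate 4, which held 200 of the 258 reads. Slc17a8 in P278KY mice ranged from 0.671 to 9.06 CPM (median 2.67) without Cre and was 0.995, 0.286 and 0.412 with Cre, and the difference of -2.61 was not called (adjusted p = 0.0869). Within index set 1 the difference in P278KY mice was -1.76 and was called (adjusted p = 0.0442).

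Lmx1b, which specifies dorsal excitatory neurons, gave the plainest separation. It was at 6.81, 8.10, 5.57, 8.37 and 8.37 CPM in NoCre WT and at 0.934, 1.98, 2.16 and 1.94 in Cre WT. In P278KY mice it ranged from 6.79 to 13.8 CPM (median 9.71) without Cre and was 0.569, 1.10 and 1.51 with Cre. No Cre library reached any NoCre library. The fall was -2.07 in WT (SE 0.34, adjusted p = 3.0e-05) and -3.22 in P278KY mice (SE 0.40, adjusted p = 1.1e-06), and it was called in both index sets in WT (-2.35 in set 1, -1.86 in set 2). Its call was kept in all 22 alternatives run for WT and all 20 for P278KY mice.

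Tlx3, the partner of Lmx1b in dorsal excitatory neurons, was near the limit of detection. NoCre WT libraries had 4, 2, 2, 14 and 3 reads and Cre WT libraries 0, 0, 1 and 2; in P278KY mice these were 1 to 6 reads (median 3.5) without Cre and 2, 0 and 0 with Cre. Scaled for depth, the summed reads were 16.3-fold lower with Cre in WT (3 against 25 reads, 95% counting interval 4.98 to 84.5) and 7.93-fold lower in P278KY mice (2 against 21 reads, 1.94 to 69.8). Without NoCre WT replicate 4, which held 14 of the 25 reads, the WT value was 8.14-fold (3 against 11 reads, 2.15 to 45.4). These intervals cover counting error only. Tested without the filter on low counts, the difference was called in WT (-4.08, adjusted p = 0.0138), though not without that library (-2.88, adjusted p = 0.0846), and not in P278KY mice (-2.69, adjusted p = 0.140).

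**Figure D2:**
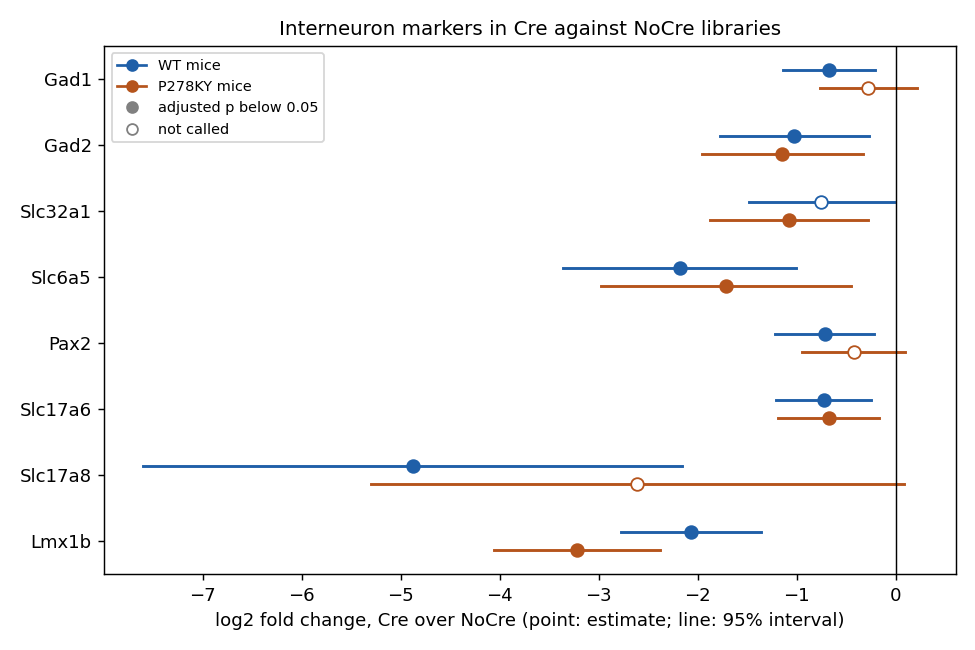
Log2 fold change of Cre over NoCre for the 8 markers that passed the filter, in WT mice (blue) and P278KY mice (brown), with 95% intervals; filled points passed the adjusted p of 0.05. All 16 estimates lie below 0, from -0.28 for Gad1 to -4.88 for Slc17a8, which has the widest intervals.

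The calls in WT mice differed between the index sets for nearly the whole group. Within set 1, where 2 Cre WT stood against 2 NoCre WT libraries, all 8 tested markers were called lower, from -0.95 for Gad1 to -3.14 for Slc17a8, beside 28.7% of all genes. Within set 2 (2 against 3 libraries) Lmx1b alone was called lower, beside 15.6% of all genes. The estimates of the others there were also below 0, from -0.02 for Gad2 to -5.33 for Slc17a8 (SE 2.36). Slc6a5 was at -1.83 (SE 0.89) and Pax2 at -0.50 (SE 0.33). All markers but Slc17a8 were nearer to 0 in set 2 than in set 1. The libraries with 1208 CPM of Slc6a5 and 39.8 CPM of Slc17a8 are in set 2. The sums of oligodendrocyte, vascular and astrocyte genes were lower in Cre WT replicates 1 and 2 than in 3 and 4. That of 10 microglia genes was not (24.1 and 38.8 CPM, then 29.8 and 30.9). The sum of 10 cholinergic motor neuron genes was higher in replicates 1 and 2 (22620 and 21691 CPM) than in 3 and 4 (15663 and 13697). For 10 astrocyte genes the sums were 1076 and 1260, then 1829 and 1567 CPM. The summed level of 10 oligodendrocyte genes was 758 and 1202 CPM in Cre WT replicates 1 and 2 and 3656 and 4142 in replicates 3 and 4, against 8178 to 12757 CPM in NoCre WT. For 10 vascular genes these sums were 33.6 and 33.8, then 165 and 221, against 263 to 454 CPM. The sum of the 5 inhibitory markers went from 83.1 and 109 to 289 and 225 CPM, against 291 to 1352 in NoCre WT. Index set and Xist level cannot be told apart in these groups, and the part that non-neuronal RNA has in the marker levels was not tested.

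**Figure D3:**
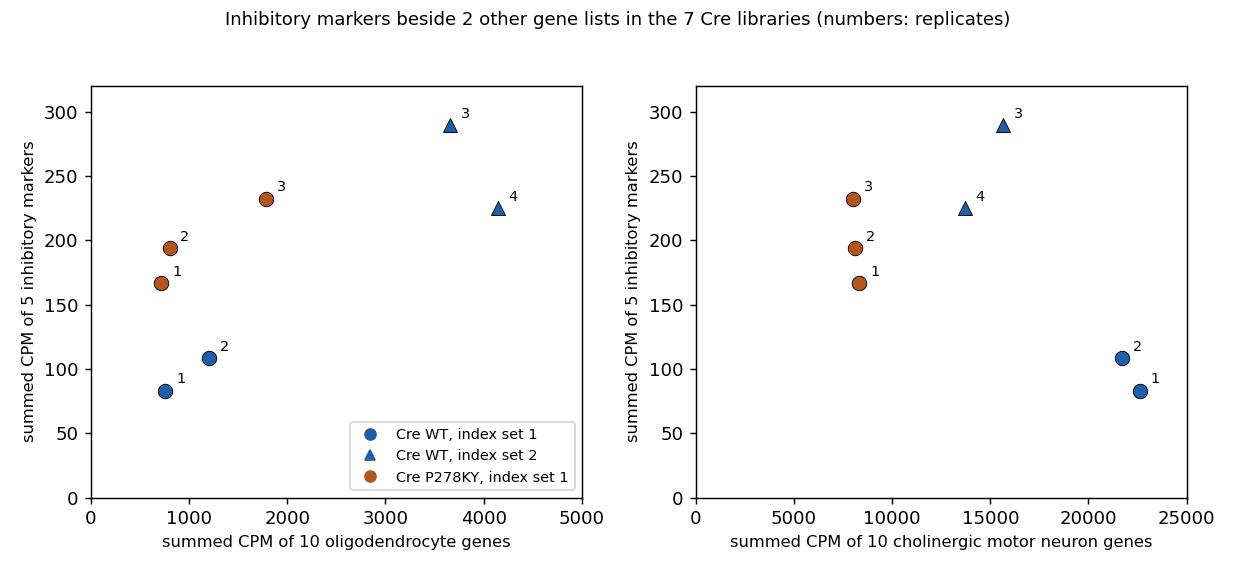
Summed CPM of the 5 inhibitory markers in the 7 Cre libraries against the summed CPM of 10 oligodendrocyte genes (left) and of 10 cholinergic motor neuron genes (right); numbers are replicates, circles index set 1 and triangles index set 2. Cre WT replicates 3 and 4 have the most oligodendrocyte RNA, and the 3 Cre P278KY libraries lie above Cre WT replicates 1 and 2 for the inhibitory markers at 718 to 1780 CPM of oligodendrocyte genes.

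Levels of different genes were compared in the deposited TPM (transcripts per 1000000, which accounts for transcript length). In NoCre P278KY libraries Slc6a5 was highest, at 43.9 to 94.4 TPM (median 74.6), above Slc17a6 at 15.4 to 43.6 (median 32.6). Below it, Gad2 (median 25.5), Gad1 (19.8), Slc32a1 (16.7) and Pax2 (10.7) followed with overlapping neighbours, and then Lmx1b (3.26), Slc17a8 (1.195) and Tlx3 (0.30). In Cre P278KY libraries the order of the medians changed: Slc6a5 (20.2) was followed by Slc17a6 (15.5), Gad1 (14.1), Gad2 (8.68), Pax2 (7.95) and Slc32a1 (5.54), with Lmx1b at 0.36. The ranges of neighbours from Slc6a5 to Slc32a1 overlapped there too. Replicate 2 had more Slc17a6 (24.85 TPM) than Slc6a5 (24.51). The TPM of Gad1 divided by that of Gad2 was 0.599 to 1.02 in NoCre P278KY and 1.17 to 1.88 in Cre P278KY, without overlap. In WT mice this ratio overlapped, at 0.793 to 2.66 without Cre and 0.995 to 5.97 with Cre.

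The balance of inhibitory to excitatory markers was also taken in TPM. The summed TPM of the 5 inhibitory markers was 3.02 to 3.59 times that of the 4 excitatory ones in Cre P278KY, 2.86 to 4.18 times in Cre WT, 3.68 to 4.37 times in NoCre P278KY and 2.82 to 10.6 times in NoCre WT. The value of 10.6 belongs to NoCre WT replicate 3, the library with 1208 CPM of Slc6a5. Set against the cholinergic marker, Slc32a1 was 4.17% to 25.5% of the TPM of Chat in Cre WT and 7.52% to 13.7% in Cre P278KY. In the NoCre groups it exceeded Chat in every library, at 196% to 431% in WT and 318% to 1225% in P278KY mice. Chat itself was called lower in NoCre P278KY than in NoCre WT (-1.45, adjusted p = 0.0340), where Slc32a1 differed by -0.0054; 3 of the 4 genes called in that comparison are on the cholinergic list, Chat, Chodl and Nefl.

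Other interneuron genes gave a mixed picture. They are read beside all genes tested, of which 28.5% rose and 31.2% fell in WT mice and 28.2% and 31.2% in P278KY mice. Of 14 further genes of inhibitory interneurons, 12 were tested, and in WT mice 8 fell and 1 rose (median -1.45). The orphan nuclear receptor Rorb (-1.81, adjusted p = 5.5e-05), the neuropeptide Npy (-2.25, adjusted p = 0.0017) and the homeodomain factor Lhx1 (-1.43, adjusted p = 0.0040) fell. The gene that rose, chosen after its values were seen, was Gal, which encodes the neuropeptide galanin (1.86, adjusted p = 0.0101). In P278KY mice 7 of 12 fell and 0 rose (median -1.56), among them Rorb (-2.68), Gata2 (-2.90) and Dmrt3 (-4.62). Of 19 further genes of excitatory interneurons, 15 were tested. Of these, 4 rose and 4 fell in WT mice (median -0.52) and 5 rose and 5 fell in P278KY mice (median -0.53), close to the shares of all genes. The neuropeptide genes Nts (2.89, adjusted p = 4.3e-08) and Cck (2.17, adjusted p = 3.3e-05) rose in Cre WT. Nts (4.12) also rose in Cre P278KY, with Calb2 (2.55).

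Genes of transmitter handling outside the marker set moved in both directions. Of all genes tested, 28.5% rose and 31.2% fell in WT and 28.2% and 31.2% in P278KY mice. Beside these shares, 3 of 10 genes of GABA and glycine handling rose and 4 fell in both genotypes. The 3 that rose were the glycine receptor subunits Glrb (2.15 in WT, 1.79 in P278KY) and Glra1 (1.46 and 1.04) and Gphn (1.12 and 0.68), which encodes the scaffold gephyrin of inhibitory synapses. The glial GABA transporter Slc6a11 fell (-1.56 and -2.79). Of 10 genes of glutamate handling, 3 rose and 4 fell in WT and 1 rose and 4 fell in P278KY mice, with the astrocyte transporters Slc1a2 (-2.40 and -3.13) and Slc1a3 (-1.81 and -3.04) among the falls; both are on the astrocyte list too. The median over these 10 was -0.10 and -0.03.

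Genes of other cell types were read beside the markers. Among all genes tested, 28.5% rose and 31.2% fell in WT mice, and 28.2% and 31.2% in P278KY mice. All 10 cholinergic motor neuron genes rose in both genotypes (median 4.18 in WT and 5.00 in P278KY), as did 10 of 12 and 9 of 12 pan-neuronal genes (medians 1.85 and 1.63), with Tubb3 at 3.90 and 4.38 and Stmn2 at 3.65 and 3.28. All 10 oligodendrocyte genes fell (medians -1.77 and -3.14), all 10 microglia genes fell (-3.28 and -3.66), 8 of 10 astrocyte genes fell in both (-1.72 and -2.86), and 8 and 10 of 10 vascular genes fell (-2.39 and -3.34). The inhibitory markers had medians of -0.75 and -1.08 and the 3 excitatory markers tested -2.07 and -2.61. No test compared these lists with each other.

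**Figure D4:**
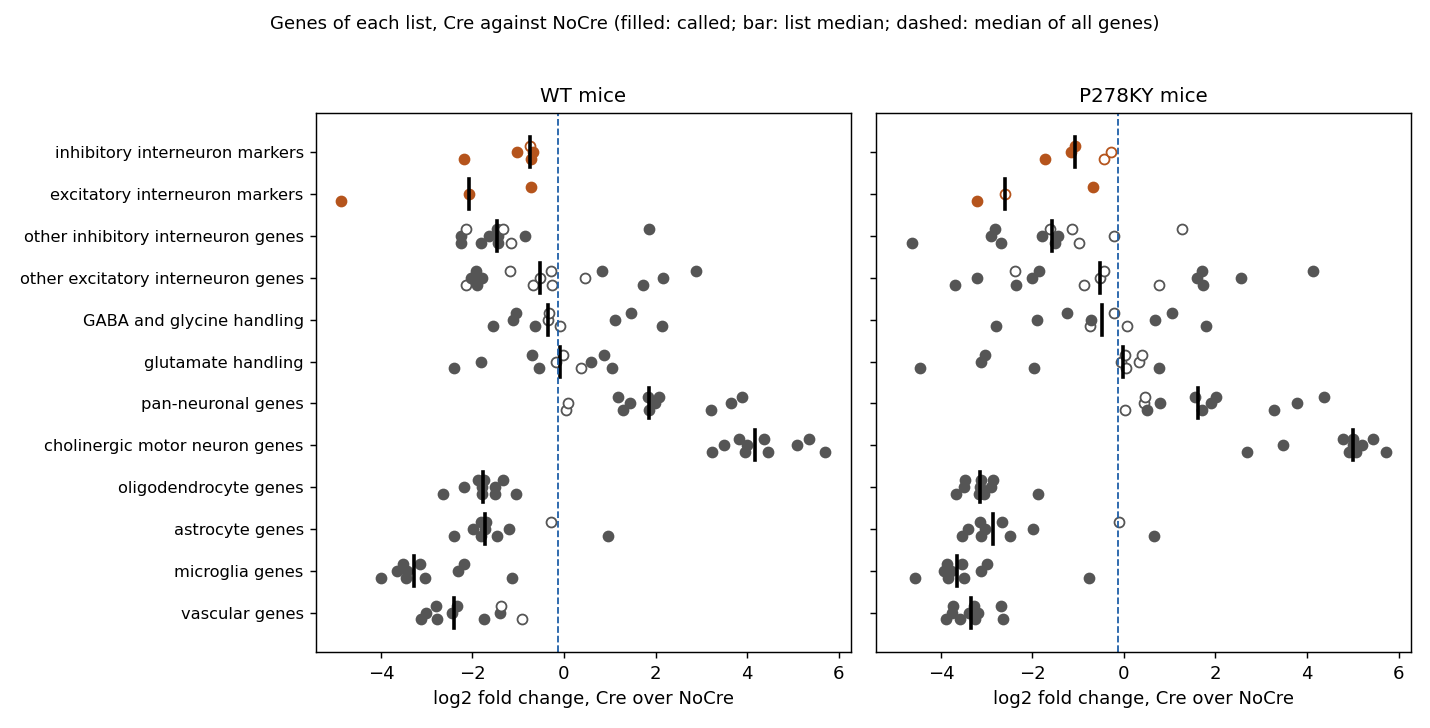
Log2 fold change of Cre over NoCre for each tested gene of 12 lists in WT (left) and P278KY mice (right); filled points were called, black bars are list medians and the dashed line is the median of all genes. Interneuron markers (brown) lie below 0, cholinergic and pan-neuronal genes above, and glial and vascular genes mostly lower, with the astrocyte gene S100b higher in both.

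The second comparison asked whether the Gars genotype changed the markers among Cre libraries. Over all 7 libraries, 0 of the 7 markers tested were called (0 also at an unadjusted p below 0.05, and 0 by DESeq2 and by limma voom), where 2.32% of 14717 genes were called. Slc17a8 and Tlx3 did not pass the filter. All 7 markers overlapped between the groups, where 16.7% of all genes did not. The differences of Cre P278KY minus Cre WT were 0.36 for Gad1, 0.48 for Gad2, -0.33 for Slc32a1, 0.04 for Slc6a5, 0.32 for Pax2, 0.31 for Slc17a6 and -0.72 for Lmx1b, with adjusted p from 0.532 to 0.980. The 95% intervals were wide, from -1.07 to 1.16 for Slc6a5 and from -0.62 to 1.58 for Gad2.

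Within index set 1, 3 of these 7 markers were higher in Cre P278KY, beside 4.3% of 14753 genes called higher. Gad2 rose by 1.56 (SE 0.27, adjusted p = 0.0050), from 16.9 and 11.4 CPM in Cre WT to 34.1, 48.2 and 37.9. Slc6a5 rose by 1.24 (adjusted p = 0.0085), from 38.3 and 51.6 to 84.3, 90.2 and 127 CPM. Slc17a6 rose by 0.98 (adjusted p = 0.0172), from 27.8 and 27.6 to 42.0, 55.1 and 58.8 CPM. In all 3 genes each P278KY library lay above both WT libraries. The same held for Gad1 and Pax2, which were not called. How many of all genes separate in this way between such small groups was not counted, so this separation is description only. Gad1 (0.76, adjusted p = 0.0884), Pax2 (0.70, adjusted p = 0.140), Slc32a1 (0.62, adjusted p = 0.207) and Lmx1b (-0.38, adjusted p = 0.784) were not called.

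**Figure D5:**
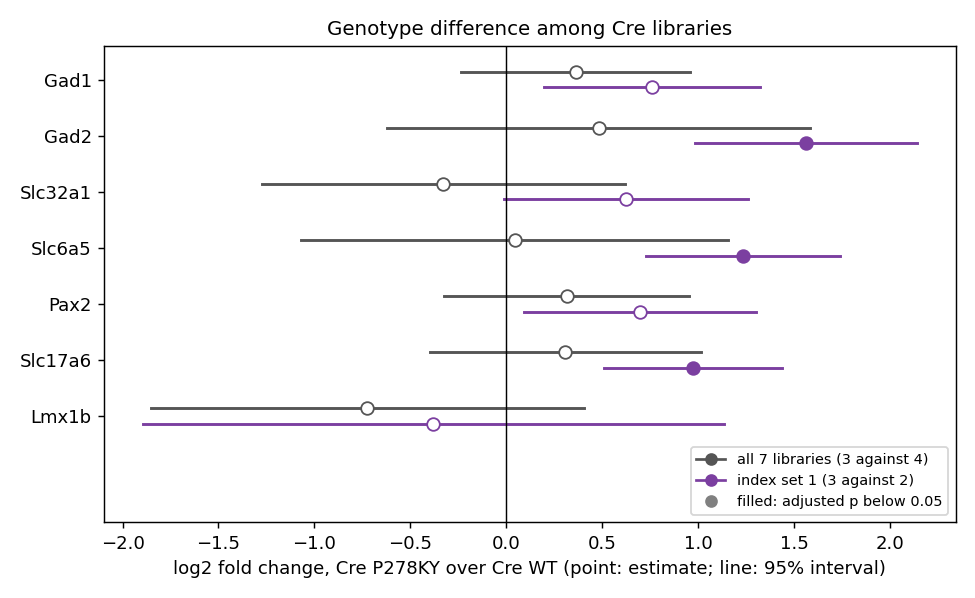
Log2 fold change of Cre P278KY over Cre WT for 7 markers over all 7 Cre libraries (grey) and within index set 1 (purple), with 95% intervals; filled points passed the adjusted p of 0.05. Gad2, Slc6a5 and Slc17a6 are filled within set 1 at 1.56, 1.24 and 0.98, and none is filled over all libraries.

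Other features moved with this difference within set 1. Both Cre WT libraries there had more Ddx3y than Xist, whereas 2 of the 3 Cre P278KY libraries had more Xist. The third, replicate 1, had the lowest values of its group for all 3 genes, and these lay above both WT libraries. With 1 such library, sex and genotype cannot be told apart here. Summed cholinergic motor neuron genes were lower in Cre P278KY (8339, 8097 and 8031 CPM) than in Cre WT replicates 1 and 2 (22620 and 21691). Over all 7 libraries, where 2.32% of all genes were called, 2 of these 10 genes were called lower. They were Chodl (-2.53, adjusted p = 0.0032) and the neurofilament gene Nefl (-1.29, adjusted p = 0.0103). Chat itself was not called (-0.17, adjusted p = 0.811). Oligodendrocyte genes gave 718, 802 and 1780 CPM against 758 and 1202, with 0 of 10 called. Of 9 genes of dorsal root ganglion neurons 4 were tested over all 7 libraries, and P2rx3 (4.86, adjusted p = 0.0102) and Avil (4.35, adjusted p = 0.0216) were higher. The other 2 were not called, where 2.32% of all genes were called. Within set 1, 2 of 4 were higher and 1 lower, beside 634 higher and 709 lower of 14753 genes. Against NoCre P278KY over all libraries, 2 of 6 were higher and 2 lower, beside 28.2% and 31.2% of all genes. The list sum was 37.5, 51.5 and 41.6 CPM against 3.74 and 2.80 in the WT libraries of set 1 and 2.68 and 26.7 in those of set 2, with 3 to 5 of the 9 genes at 0 in each Cre P278KY library. The part of sex, of motor neuron RNA and of ganglion RNA in the marker difference was not tested.

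Among the other lists, few genes differed by genotype over the 7 Cre libraries, where 2.32% of all genes were called. Of 13 further excitatory interneuron genes tested, Nts rose (1.24, adjusted p = 0.0355) and Maf, a transcription factor, fell (-1.43, adjusted p = 0.0092). None of 11 further inhibitory interneuron genes and none of 10 genes of GABA and glycine handling was called, and of 9 glutamate handling genes Glul, the glutamine synthetase, fell (-1.28, adjusted p = 0.0354). Of 12 pan-neuronal genes Rbfox3 fell (-1.08, adjusted p = 0.0224).

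Without Cre, no difference by Gars genotype was shown for any marker. None of the 8 markers tested was called (0 at an unadjusted p below 0.05, and 0 by DESeq2 and by limma voom), where 0.0233% of 17133 genes were called. The estimates ran from -1.34 (Slc17a8) to 0.60 on the log2 scale. Slc17a8 turned to 1.22 without NoCre WT replicate 4, and Slc6a5 went from -0.42 to 0.39 without NoCre WT replicate 3. The interaction of genotype with Cre was called for 0 of 8 markers (1, Lmx1b, at an unadjusted p below 0.05, and 0 by DESeq2 and by limma voom), beside 0.654% of all genes. The difference between the 2 enrichments was thus not shown for any marker, including those called in 1 genotype only. For Gad2 the interaction was -0.12 over all libraries and 1.24 (adjusted p = 0.0439) within index set 1, where 2.37% of all genes were called.

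The genes most like the transporters in pattern were found by the root mean square difference of centred log2 CPM over the 18 libraries among 11852 genes. For Slc32a1 these were Exd2 (0.28), Kifc3 (0.29), Hn1l (0.30), Nadk (0.30) and the metabotropic glutamate receptor gene Grm3 (0.31). For Slc17a6 they were Sema6d (0.18), Abat (0.20), Gna13 (0.20), Slc6a17 (0.20) and Setd5 (0.20). The other inhibitory markers were farther from Slc32a1 (Pax2 0.58, Gad1 0.61, Gad2 0.74 and Slc6a5 0.84) than Slc17a6 was (0.46), and Lmx1b was far from both transporters (0.90 and 0.86).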

How the data were processed

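Reads were aligned and quantified with Bowtie2 2.2.0 and RSEM 1.2.12, per the submitters' processing notes. The build they aligned to is not given in the sources used here. The authors deposited, for each library, an expected count and a TPM value per gene. RSEM shares reads between genes, and 83% to 87.4% of the deposited expected counts, zeros included, were exactly whole (tolerance 0) in each library; they were rounded to whole numbers. The deposited TPM values were used unchanged, and only to compare levels between genes.

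The 5 comparisons used edgeR 4.0.16 (filterByExpr, TMM factors, quasi-likelihood test) in R 4.3.3, with Benjamini-Hochberg adjustment over all genes tested and a threshold of 0.05. Both enrichments, the NoCre genotype difference and the interaction came from 1 fit of all 18 libraries (17133 genes), and the Cre genotype difference from the 7 Cre libraries (14717 genes). Tlx3 did not pass the filter in either fit, and Slc17a8 did not in the second. Alternatives used DESeq2 1.42.0, limma 3.58.1 voom, other scalings and filters, index set as a term, each index set alone, and libraries left out. Pearson correlations of log2 CPM within groups were 0.918 or higher, and no library pair agreed within sampling noise.

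Samples were grouped by the genotypes in the labels, and replicate numbers in accession order only name mice. The mice carry separate names, some of which begin with the same number, also within a group, and the labels do not say what it means. Beyond these names and the index sequences nothing in the labels describes the replicates, so p-values measure the spread between these samples. The markers and gene lists were chosen with earlier results of these data known. Of each further list, up to 3 genes with the smallest adjusted p in a comparison are named, and others were chosen after their values were seen. Counting intervals (95%) cover counting error only. Tested on simulated counts with 4-fold changes, the fit recovered 74% of changed genes for the WT enrichment and 67% for P278KY. It recovered 75% for the Cre genotype difference, 75% for the NoCre genotype difference and 40% for the interaction. For 2-fold changes these were 23%, 15%, 3%, 30% and 5%. Only a small part of the genes was changed in the simulated counts, while 10229 of 17133 were called in the WT enrichment. The adjusted threshold is looser when more genes change, so these shares do not give the recovery in the real enrichments.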

Additional observations from a re-analysis of the deposited data

Results flagged for a closer look

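Of 27 groups of marker values large enough to examine (4 to 6 libraries), 5 held 1 library far from the others by Dixon's criterion, which chance meets in about 1 group in 20. In NoCre WT, replicate 3 had 1208 CPM of Slc6a5, where the other 4 libraries had 164 to 323. NoCre WT replicate 4 had 39.8 CPM of Slc17a8, where the others had 0.398 to 2.43, and 2.79 CPM of Tlx3 (14 reads), where the others had 0.199 to 0.457. In NoCre P278KY, replicate 6 had 10.5 CPM of Slc32a1, where the others had 23.6 to 30.5, and replicate 2 had 13.7 CPM of Pax2, where the others had 19.8 to 22.4. Over all genes that reached 10 CPM in the library, more than 3 times the highest value of the 17 other libraries was found for 39 of 7523 genes in NoCre WT replicate 4, Slc17a8 among them, 10 of 7505 in NoCre WT replicate 3, 46 of 7293 in NoCre P278KY replicate 6 and 0 of 7492 in NoCre P278KY replicate 2.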

How the results depend on the processing

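All 8 markers tested kept a negative sign in both enrichments under every alternative run, whereas 4 of 7 changed sign under at least 1 alternative in the Cre genotype difference, 7 of 8 in the NoCre genotype difference and 6 of 8 in the interaction. The markers called in WT (7) became 3 with library size only and 1 within index set 2, and those in P278KY mice (5) became 2 with library size only and 2 with no filter on low counts. Leaving out each library in turn gave 4 to 8 markers in WT, 1 to 5 in P278KY mice and 0 in the other comparisons. Genes called over the whole table then ran from 9050 to 10103 and from 8263 to 10051 in the enrichments, 95 to 324 in the Cre genotype difference, 2 to 6 in the NoCre genotype difference and 41 to 250 in the interaction; within index set 2 the WT enrichment gave 4955. The median of all genes in the WT enrichment was -0.12 with TMM, -0.26 with RLE factors, 0.20 when scaled by library size only and -0.51 when ribosomal RNA genes were left out of the library size, and in P278KY mice -0.13, -0.25, -0.12 and -0.56. Higher and lower calls were 4877 and 5352 in WT with TMM, 4320 and 5842 with RLE, 4825 and 3336 with library size only and 2487 and 6019 without ribosomal RNA. In P278KY mice they were 4840 and 5340, 4376 and 5749, 3578 and 4279, and 2411 and 6074. For the Cre genotype difference (342 genes), library size only gave 148, library size without ribosomal RNA 157, DESeq2 972, index set as a term 1676 and index set 1 alone 1343 genes, the last 2 with 3 markers. Slc6a5 turned to -0.087 (library size only) and -0.064 (ribosomal RNA left out), and ran from -0.22 to 0.44 as each library was left out (below 0 without Cre WT replicate 1 or 2 or Cre P278KY replicate 3), and Slc32a1 to 0.63 with index set as a term and 0.62 within set 1. For the NoCre genotype difference (4 genes), library size only, index set 2 alone and leaving out both NoCre WT replicates 4 and 5 each gave 2, and DESeq2 28. In it Slc17a8 turned to 0.16 with voom, 1.39 with the replicate block and 1.09 without both NoCre WT replicates 4 and 5, and ran from -1.89 to 1.22 as each library was left out (above 0 without NoCre WT replicate 4); Slc6a5 turned to 0.12 within index set 1, and ran from -0.66 to 0.39 (above 0 without NoCre WT replicate 3). For the interaction (112 genes), library size only gave 5, without ribosomal RNA 28, DESeq2 382 and index set 1 alone 406, with 1 marker. The interaction of Gad2 turned to 1.24 within index set 1, and 0.24 without both NoCre WT replicates 4 and 5, and ran from -0.38 to 0.47 as each library was left out (above 0 without Cre WT replicate 3 or NoCre WT replicate 5). The cause of these moves was not tested. Whether the numbers that begin the mouse names pair the samples was looked at between groups only, in deviations from group means. There 12 same-number pairs had correlations of -0.16 to 0.28 (median 0.0032), 2 above 0.1. The 107 other pairs had -0.34 to 0.33 (median 0.0036), 29 above 0.1. Same-number pairs within a group were not part of this check. With the number that begins the mouse names as a replicate block, the Cre genotype difference gave 1664 genes and 1 marker (Slc32a1, -0.94, adjusted p = 0.0434). Gad2 was then -0.28, Slc6a5 -0.53 and Slc17a6 -0.19. Among Cre mice, both genotypes share a number only in P278KY replicates 1 and 3 (index set 1) and WT replicates 3 and 4 (set 2). In this alternative the Cre genotype difference and index set therefore cannot be told apart. With the same block, the NoCre genotype difference gave 2 genes and the interaction of Gad2 was 0.18. Within index set 2, the P278KY enrichment, the Cre genotype difference and the interaction could not be fitted, as it holds no Cre P278KY library. The Tlx3 values without NoCre WT replicate 4 were chosen after seeing the data. At this depth Tlx3 and, in the Cre libraries, Slc17a8 rest on a few reads.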
